A study of Saccharomyces cerevisiae with 2 samples.

Results

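The mRNAs described here encode enzymes of glycolysis in Saccharomyces cerevisiae, PGI1, FBA1, TPI1, TDH2, TDH3, PGK1, GPM1, ENO1, ENO2 and CDC19. They were chosen by name, as abundant mRNAs of the same pathway, and the rule uses no measured value, although earlier results of these data were known when it was set. They are 10 of 2224 protein-coding features that had reads in any of the count tables. All 10 had reads in the sense direction, in which the mRNA runs, and none had an antisense read in either library. The reads came from CRAC, in which UV light cross-links a protein to RNA in vivo, the tag serves to purify the protein, and the RNA fragments still attached are converted into cDNA and sequenced. The library named Sni445-HTP came from yeast that carries Sni445 with a C-terminal HTP tag (histidines, a TEV protease site and protein A) at its own chromosomal locus. The control came from an untagged wild-type strain. Both are BY4741 derivatives (MATa, with his3, leu2, met15 and ura3 mutations), both were grown in synthetic glucose medium without tryptophan to an optical density of 0.6, and both were irradiated for 100 seconds. Each strain gave 1 library, so no difference below has a replicate check and no p-value is given. Intervals are exact 95% intervals for counting error alone, and since reads copied by PCR (16 cycles) are not independent molecules, they are too narrow for reads.

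Glycolysis breaks glucose down to pyruvate and yields ATP, and yeast growing on glucose ferments most of that pyruvate to ethanol. Its enzymes belong to the most abundant proteins of such cells, and their mRNAs are abundant and heavily translated. Sni445 is a protein studied for its contacts with snR4 and snR45, the box C/D snoRNAs that guide acetylation of 18S rRNA. In a CRAC experiment abundant mRNAs can be carried through the purification without any contact with the tagged protein, and the untagged control measures that background. The comparison asked here is whether reads on the glycolytic mRNAs take a larger or smaller place with Sni445-HTP than in this background.

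Mapped reads numbered 21867727 for Sni445-HTP and 12654405 for the control, which became 26984818 and 22960662 sense counts because a read over several features was counted on each. The make-up of the libraries differed widely. snR4 and snR45 took 79.5% of the sense counts with Sni445-HTP against 1.42% in the control, whereas rRNA features took 2.32% and 69.7%. Protein-coding features had 77611 sense counts with Sni445-HTP, spread over 1778 features, and 2678698 in the control, on 528 features. The count tables also give distinct cDNAs, the number left after copies of the same cDNA are collapsed. There were 322543 of these with Sni445-HTP against 804158 in the control.

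Reads on the 10 glycolytic mRNAs made up a 42.0-fold smaller share of the Sni445-HTP library than of the control. Of the counts on protein-coding features alone their share differed little, which held with PGI1 included but not without it. Together they had 2475 reads with Sni445-HTP, 0.00917% of all sense counts (0.00881 to 0.00954), and 88406 in the control, 0.385% (0.383 to 0.388). The ratio of these shares was 0.0238 (0.0229 to 0.0248). Of the sense counts on protein-coding features alone, the same reads were 3.19% (3.07 to 3.32) with Sni445-HTP against 3.30% (3.28 to 3.32) in the control, a ratio of 0.966 (0.928 to 1.01). Without PGI1 the share with Sni445-HTP was 2.04% (1.94 to 2.14), a ratio of 0.618 (0.588 to 0.650). Under the 30 limit on read length, which keeps only the shorter reads, the 10 mRNAs had 1.84% (1.73 to 1.97) with Sni445-HTP against 4.55% (4.51 to 4.59). Of the 77611 protein-coding counts with Sni445-HTP, only 29665 lay on features that matched the RefSeq R64 genome without overlapping a noncoding RNA gene. The other counts lay on features that overlap such a gene on the same strand or had no match. This denominator may therefore not be mRNA alone. In distinct cDNAs the sums were 528 and 1618, or 0.164% (0.150 to 0.178) and 0.201% (0.192 to 0.211) of all cDNAs, with a ratio of 0.814 (0.736 to 0.898). All these ratios lay below 1, and their size depended on the denominator and on the unit. The direction depended on them too. Of the distinct cDNAs on protein-coding features the 10 held 2.18% with Sni445-HTP against 1.89% in the control. Of the reads on protein-coding features outside the rDNA they held 7.16% against 5.47%. Without PGI1 these Sni445-HTP values were 2.03% and 4.58%.

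Not all of the 10 mRNAs behaved alike. For 8 of them (FBA1, TDH2, TDH3, PGK1, GPM1, ENO1, ENO2 and CDC19) the share of reads was between 35.2-fold and 117-fold lower with Sni445-HTP. PGI1 and TPI1 went the other way, with 891 and 76 reads against 0 and 1. Lower by at least 4-fold was also the commonest outcome for other mRNAs. Among the 810 protein-coding features that reached 10 reads over both libraries, 54.7% were at least 4-fold lower and 20.9% at least 4-fold higher. The median ratio was 0.0177 over the 10 glycolytic mRNAs and 0.0528 over the 810 features. In distinct cDNAs, 0 of the 10 were at least 4-fold lower and PGI1 and TPI1 were at least 4-fold higher. The corresponding shares of the 430 features with enough cDNAs and no antisense reads were 44.0% and 11.9%. Such features needed 10 cDNAs in the libraries together, and 374 reached 10 in the control against 137 with Sni445-HTP. Many of the 430 thus passed through their control cDNAs, which favours a lower ratio. The 10 glycolytic mRNAs were chosen by name, so the sets are unlike. The minimum for the 810 features was likewise over both libraries. The median cDNA ratio was 1.12 over the 10 and 0.299 over the 430 features. The median over the 10 counts the bound for PGI1 and the TPI1 ratio, which rests on 1 control cDNA. Summed over the 10, the cDNA ratio was 0.814.

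**Figure D1:**
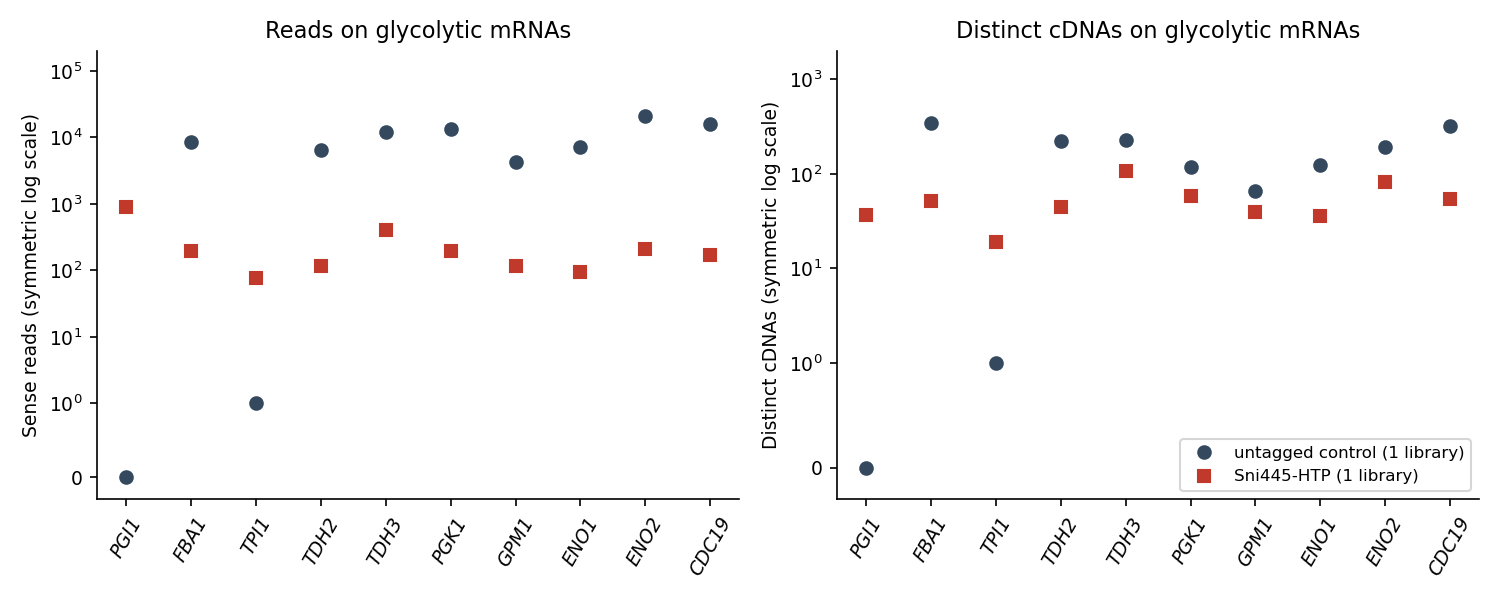
Sense reads (left) and distinct cDNAs (right) on each glycolytic mRNA, in pathway order, in the untagged control library (circles) and the Sni445-HTP library (squares), on symmetric log axes that include 0, with 1 library per strain and no error bars. The control lies above Sni445-HTP for 8 mRNAs, by much more in reads than in cDNAs, while PGI1 (0 in the control) and TPI1 (1 in the control) lie the other way. Counts are not scaled to library totals, which for cDNAs were 804158 in the control and 322543 with Sni445-HTP.

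Some reads of these genes cannot be assigned to 1 gene. TDH2 and TDH3 encode isozymes of glyceraldehyde-3-phosphate dehydrogenase, and ENO1 and ENO2 encode isozymes of enolase. Novoalign placed a read that matched several sites at 1 of them at random. In the RefSeq R64 genome, whose coding sequences were compared by gene name, TDH2 and TDH3 are identical at 957 of 999 coding positions (95.8%), and ENO1 and ENO2 at 1246 of 1314 (94.8%), with no gaps. A window of 30 nt, the shorter limit on read length, also occurs elsewhere in the genome for 52.0% of the windows of TDH2, 44.5% of those of TDH3 and 40.0% of those of each enolase gene. For PGI1, FBA1, TPI1, PGK1, GPM1 and CDC19 no window of 30 nt or of 20 nt occurs elsewhere.

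The longest run shared by both enolase genes and the longest run shared by both dehydrogenase genes are printed to show where a read cannot tell the pair apart. The dehydrogenase run is 173 nt long, from coding position 355 to 527, and lies at X:454155-454327 in TDH2 and VII:883284-883456 in TDH3, both on the minus strand. The enolase run is 112 nt long, from coding position 551 to 662, and lies on the plus strand at VII:1001477-1001588 in ENO1 and VIII:451877-451988 in ENO2. Both are in exons, within the coding sequence.
TDH2 and TDH3, shared: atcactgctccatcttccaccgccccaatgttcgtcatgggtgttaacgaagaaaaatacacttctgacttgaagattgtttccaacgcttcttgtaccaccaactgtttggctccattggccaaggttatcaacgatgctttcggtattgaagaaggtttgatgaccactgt
ENO1 and ENO2, shared: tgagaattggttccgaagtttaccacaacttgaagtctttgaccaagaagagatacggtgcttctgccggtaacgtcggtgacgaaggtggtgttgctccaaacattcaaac

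The windows of 60 nt in which the pairs differ most are printed for contrast, with the differing bases in capitals. A read across a whole window could tell the pair apart, whereas a short read between the differing bases could not. TDH1, which is identical to TDH2 at 90.2% of coding positions, was not compared in these windows. In the dehydrogenase window, from coding position 64 to 123, TDH2 (X:454559-454618, minus strand) and TDH3 (VII:883688-883747, minus strand) differ at 12 bases. In the enolase window, from coding position 340 to 399, ENO1 (VII:1001266-1001325, plus strand) and ENO2 (VIII:451666-451725, plus strand) differ at 13.
TDH2: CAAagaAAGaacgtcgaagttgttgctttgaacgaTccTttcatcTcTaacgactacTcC
TDH3: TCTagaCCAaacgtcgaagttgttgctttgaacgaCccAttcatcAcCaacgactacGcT
ENO1: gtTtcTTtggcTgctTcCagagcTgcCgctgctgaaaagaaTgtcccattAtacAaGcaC
ENO2: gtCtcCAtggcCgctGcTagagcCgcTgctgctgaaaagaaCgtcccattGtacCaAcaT

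PGI1 encodes glucose-6-phosphate isomerase, which turns glucose 6-phosphate into fructose 6-phosphate. The gene (YBR196C) lies on chromosome II from 612236 to 613900 on the minus strand, with a coding length of 1665 nt and, like the other 9 genes, no intron. PGI1 had 891 reads with Sni445-HTP against 0 in the control. With the control set to a floor of 3 reads, its share of sense counts was 253-fold higher with Sni445-HTP. That bound holds for reads taken as independent. Protein-coding features of the control had a median of 42.6 reads per cDNA, so the floor is less than a typical single cDNA gave. Under the 30 limit, with 43 reads against 0, that bound was 8.93-fold. These reads came from few cDNAs. There were 37 distinct cDNAs, or 24.1 reads per cDNA, against 2.57 to 4.0 for the other 9 mRNAs of the library. In cDNAs the share was at least 30.7-fold higher. Nearly all of the copies were on reads beyond the 30 limit, where PGI1 had 848 reads on 27 cDNAs, 31.4 for each. Within the limit it had 43 reads on 10 cDNAs, 4.30 for each.

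FBA1 encodes fructose-bisphosphate aldolase, which splits fructose 1,6-bisphosphate into a pair of triose phosphates. It lies on chromosome XI from 326408 to 327487 on the minus strand (YKL060C, 1080 nt). FBA1 had 198 reads with Sni445-HTP against 8470 in the control, so that its share was 50.3-fold lower (ratio 0.0199, 0.0172 to 0.0229). It had 52 cDNAs with Sni445-HTP against 346 in the control, the most of the 10 mRNAs there, with a cDNA ratio of 0.375 (0.274 to 0.503). FBA1 was thus lower in both units, by less than 4-fold in cDNAs.

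TPI1 encodes triose-phosphate isomerase, which interconverts the products of aldolase. It lies on chromosome IV from 555726 to 556472 on the minus strand (YDR050C, 747 nt). TPI1 had 76 reads on 19 cDNAs with Sni445-HTP against 1 read in the control. Its ratio of read shares was 64.7 (11.3 to 2587) and its cDNA ratio was 47.4 (7.53 to 1968), both wide because the control holds a single read. Unlike PGI1, its 4.0 reads per cDNA were close to those of the other mRNAs of the library. TPI1 had the fewest reads and cDNAs of the 10 mRNAs with Sni445-HTP.

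Glyceraldehyde-3-phosphate dehydrogenase, which oxidises glyceraldehyde 3-phosphate and yields NADH, was represented by TDH3 and TDH2. TDH3, the gene of the main isozyme during growth on glucose, lies on chromosome VII from 882812 to 883810 on the minus strand (YGR192C, 999 nt). It had 406 reads with Sni445-HTP against 12165 in the control, a 35.2-fold lower share (ratio 0.0284, 0.0257 to 0.0314). In cDNAs it had 107 and 226, a ratio of 1.18 whose interval of 0.929 to 1.49 includes equal shares. TDH3 had the smallest difference in reads of the 8 mRNAs and the most cDNAs with Sni445-HTP.

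TDH2 lies on chromosome X from 453683 to 454681 on the minus strand (YJR009C, 999 nt). It had 116 reads with Sni445-HTP against 6349 in the control, a 64.3-fold lower share (ratio 0.0155, 0.0128 to 0.0187), and 44 against 221 cDNAs, a ratio of 0.496 (0.351 to 0.689). Because reads on the sequence they share were split between TDH2 and TDH3 at random, the sum of both is the safer value for reads. Copies of the same cDNA could be placed on both genes and counted on each, so a cDNA sum may be too high. This was not tested. Summed, they had 522 and 18514 reads (ratio 0.0240, 0.0219 to 0.0262), and 151 and 447 cDNAs (ratio 0.842, 0.696 to 1.02). TDH1, the isozyme gene that is used mainly in stationary phase, had 16 and 365 reads and 9 and 18 cDNAs.

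PGK1 encodes phosphoglycerate kinase, which makes ATP from 1,3-bisphosphoglycerate. It lies on chromosome III from 137746 to 138996 on the plus strand (YCR012W, 1251 nt). PGK1 had 198 reads with Sni445-HTP against 13547 in the control, an 80.4-fold lower share (ratio 0.0124, 0.0108 to 0.0143). In cDNAs it had 58 and 119, and the ratio of 1.22 (0.872 to 1.68) includes equal shares. With 114 reads per cDNA in the control and 3.41 with Sni445-HTP, PGK1 had the most copies per cDNA of the 10 mRNAs in the control.

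GPM1 encodes phosphoglycerate mutase, which moves the phosphate of 3-phosphoglycerate to the neighbouring carbon. It lies on chromosome XI from 163642 to 164385 on the minus strand (YKL152C, 744 nt). GPM1 had 118 reads with Sni445-HTP against 4194 in the control, the fewest of the 8 mRNAs there, and its share was 41.8-fold lower (ratio 0.0239, 0.0198 to 0.0287). In cDNAs it had 39 and 66, a ratio of 1.47 (0.965 to 2.22).

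Enolase, which removes water from 2-phosphoglycerate to give phosphoenolpyruvate, was represented by ENO1 and ENO2. ENO2, the gene induced by glucose, lies on chromosome VIII from 451327 to 452640 on the plus strand (YHR174W, 1314 nt). It had 211 reads with Sni445-HTP against 21026 in the control, and its 117-fold lower share (ratio 0.00854, 0.00742 to 0.00978) was the lowest ratio of the 10. Under the 30 limit ENO1 was lower by 210-fold and ENO2 by 203-fold. In cDNAs it had 82 and 194, a ratio of 1.05 (0.804 to 1.37). ENO1 lies on chromosome VII from 1000927 to 1002240 on the plus strand (YGR254W, 1314 nt). It had 93 and 7044 reads, an 89.0-fold lower share (ratio 0.0112, 0.00906 to 0.0138), and 36 and 125 cDNAs (ratio 0.718, 0.481 to 1.05). Summed over the pair, reads were 304 and 28070 (ratio 0.00922, 0.00820 to 0.0103), and cDNAs were 118 and 319 (ratio 0.922, 0.740 to 1.14). The cDNA sum has the same limit as that of TDH2 and TDH3.

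CDC19 encodes the main pyruvate kinase, which makes ATP and pyruvate from phosphoenolpyruvate. It lies on chromosome I from 71786 to 73288 on the plus strand (YAL038W, 1503 nt). CDC19 had 168 reads with Sni445-HTP against 15610 in the control, a 109-fold lower share (ratio 0.00916, 0.00782 to 0.0107). In cDNAs it had 54 and 320, a ratio of 0.421 (0.309 to 0.563). CDC19, FBA1 and TDH2 were the mRNAs whose cDNA intervals lay wholly below equal shares. For TDH3, PGK1, GPM1, ENO1 and ENO2 the cDNA intervals included it.

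**Figure D2:**
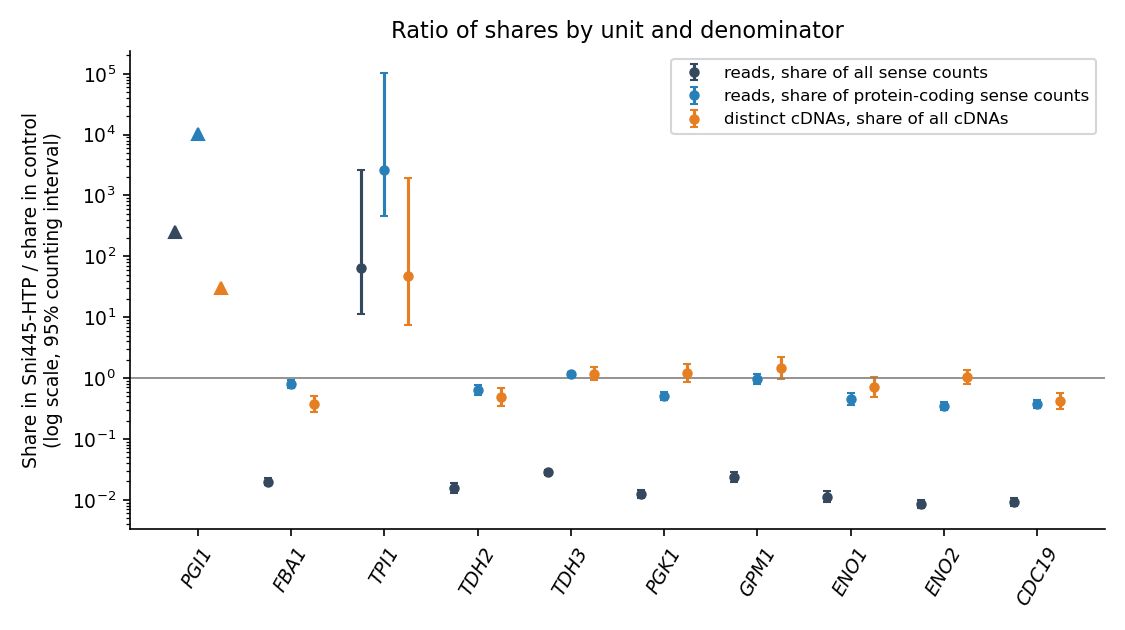
Ratio of shares, Sni445-HTP over control (log axis, bars are 95% counting intervals), for each glycolytic mRNA in reads over all sense counts, in reads over protein-coding sense counts and in distinct cDNAs over all cDNAs. Triangles are lower bounds for PGI1, which had no control read, and the grey line marks equal shares. Over all sense counts 8 mRNAs lie between 0.00854 and 0.0284, and in cDNAs the same mRNAs lie between 0.375 and 1.47.

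Against protein-coding counts alone, the ratio of every mRNA is multiplied by the same factor, so that the order and the relative spread of the 8 mRNAs stay as they were and only their place relative to equal shares moves. TDH3 had a ratio of 1.15 (1.04 to 1.27) and GPM1 one of 0.971 (0.802 to 1.17), which includes equal shares. FBA1 followed at 0.807 (0.697 to 0.929), TDH2 at 0.631 (0.520 to 0.758), PGK1 at 0.504 (0.436 to 0.580) and ENO1 at 0.456 (0.367 to 0.559). CDC19, at 0.371 (0.317 to 0.432), and ENO2, at 0.346 (0.301 to 0.397), were lowest. No mRNA of the 8 passed 4-fold on this scale. Without PGI1 the ratio over all sense counts was 0.0152, or 65.6-fold lower.

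Many protein-coding counts fell on features that share bases with a noncoding RNA gene on the same strand or had no match in R64. Over protein-coding features with a match and no such overlap, the 10 mRNAs held 8.34% (8.03 to 8.66) of the reads with Sni445-HTP. In the control they held 7.62% (7.57 to 7.67). Without PGI1 the value with Sni445-HTP was 5.34% (5.09 to 5.60). In distinct cDNAs the same shares were 8.67% (7.98 to 9.41) and 7.47% (7.13 to 7.83).

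With Sni445-HTP all 10 were among the first 50 of 1778 protein-coding features by reads, and 5 were among the first 20. In the control 7 were among the first 50 of 528, and 5 among the first 20. The other 3 were GPM1 at place 113, TPI1 at place 498 and PGI1, which was not listed. Without features that overlap noncoding RNA genes or lack an R64 match, 8 ranked in the first 20 with Sni445-HTP against 5 in the control. If the 10 are counted as a single feature, their sum ranked at place 3 in each library. Its nearest neighbours with Sni445-HTP were RPS7B with 6446 reads, YGL088W with 1801 and RPL2B with 1401. In the control they were YGL088W with 347716 reads, PDC1 with 31245 and EFB1 with 27024. In R64 YGL088W overlaps the snoRNA gene SNR10 and the gene of EFB1 holds a snoRNA gene as well, so their reads cannot be assigned to an mRNA.

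Levels between genes were compared as distinct cDNAs per kilobase of coding sequence. With Sni445-HTP the order was TDH3 at 107, ENO2 at 62.4, GPM1 at 52.4, FBA1 at 48.1, PGK1 at 46.4, TDH2 at 44.0, CDC19 at 35.9, ENO1 at 27.4, TPI1 at 25.4 and PGI1 at 22.2. TDH3 stood apart, and no other neighbours in this order had separate counting intervals. In the control the order began with FBA1 at 320, TDH3 at 226, TDH2 at 221 and CDC19 at 213, followed by ENO2 at 148, then ENO1 and PGK1 at 95.1 each and GPM1 at 88.7. TPI1, at 1.34, and PGI1, at 0, came last. The intervals were separate between FBA1 and TDH3, between CDC19 and ENO2, between ENO2 and ENO1, and between GPM1 and TPI1. Over the 10 genes the Spearman correlation of cDNAs per kilobase between the libraries was 0.576, a description of genes that share their libraries. For the 8 mRNAs other than PGI1 and TPI1, the correlation of cDNA numbers was 0.310 and that of reads 0.647. Over all 10 the order was opposite, with 0.588 for cDNA numbers and 0.274 for reads.

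Copies per cDNA separated the libraries completely for the 8 mRNAs with control reads. Each distinct cDNA had between 2.57 reads (ENO2) and 3.81 reads (FBA1) with Sni445-HTP, and between 24.5 (FBA1) and 114 (PGK1) in the control. ENO2 had 108 reads per cDNA in the control, GPM1 63.5, ENO1 56.4, TDH3 53.8, CDC19 48.8 and TDH2 28.7. Other mRNAs showed the same gap. Among protein-coding features without antisense reads and with at least 10 cDNAs, the median was 3.11 over 137 features with Sni445-HTP against 42.6 (range 1.43 to 654) over 374 features in the control. PGI1, with 24.1, ranked at place 4 of the 137. How far the read ratios rest on this difference in copies was not tested beyond the cDNA ratios given for each mRNA.

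**Figure D3:**
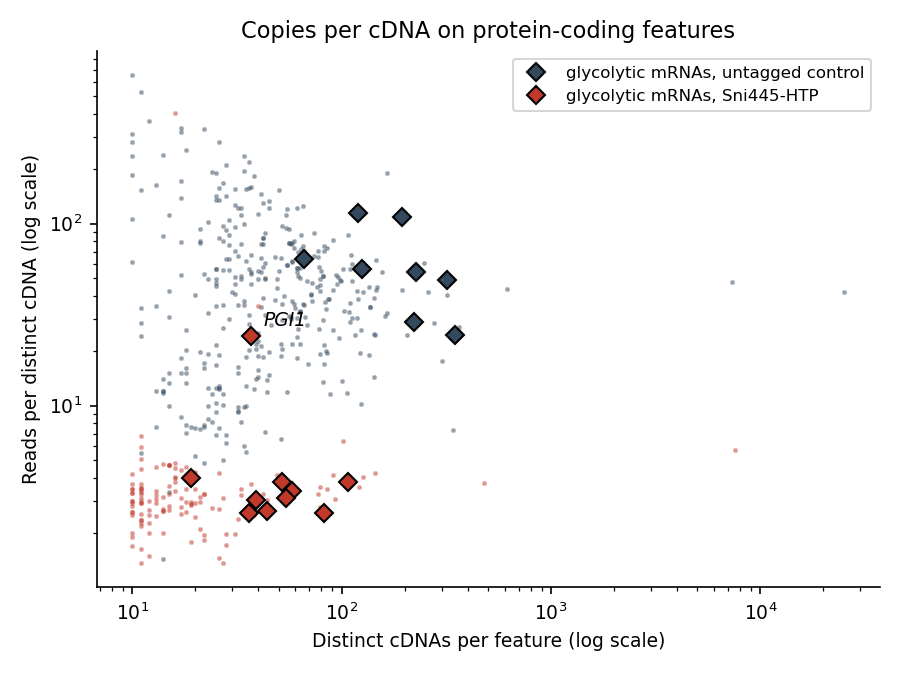
Reads per distinct cDNA against the number of distinct cDNAs (both log axes) for protein-coding features with at least 10 cDNAs and no antisense reads, with the glycolytic mRNAs as diamonds and other features as dots, control in dark blue and Sni445-HTP in red. The glycolytic mRNAs lie between 24.5 and 114 in the control and between 2.57 and 4.0 with Sni445-HTP, except PGI1 at 24.1.

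PGI1 and TPI1 were not the only well-covered mRNAs that the control lacked. Of 59 protein-coding features without antisense reads that had at least as many cDNAs with Sni445-HTP as TPI1 (19), 9 had at most 1 control read and 8 had none. The floor of 3 reads is 1.31e-05% of the control counts. The counting interval of PGI1 in the control reaches a share of 1.61e-05%, slightly above that floor, and covers counting error in reads only.

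Read length differed more between mRNAs in the control than with Sni445-HTP. Within the 30 limit lay 12.6% of the control reads of CDC19, 24.0% of TDH2, 44.6% of FBA1, 46.5% of TDH3, 53.1% of GPM1, 66.7% of ENO2, 81.8% of PGK1 and 92.9% of ENO1. With Sni445-HTP the same 8 mRNAs ranged only from 39.7% (30.7 to 49.2) for TDH2 to 64.3% (59.4 to 69.0) for TDH3. TPI1 had 52.6% (40.8 to 64.2). PGI1 stood far below in reads, at 4.83% (3.51 to 6.45). In distinct cDNAs PGI1 had 27.0% (13.8 to 44.1), an interval that overlaps that of TDH2, 38.6% (24.4 to 54.5). ENO1 and ENO2 show that nearly identical genes had unlike profiles in the control, 92.9% (92.3 to 93.5) against 66.7% (66.1 to 67.4), and overlapping ones with Sni445-HTP, 53.8% (43.1 to 64.2) and 52.6% (45.6 to 59.5).

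Summed over the 10 mRNAs, 36.4% (34.5 to 38.3) of the reads lay within the 30 limit with Sni445-HTP against 52.9% (52.6 to 53.3) in the control. Without PGI1 the Sni445-HTP value was 54.2% (51.7 to 56.6), an interval that includes the control value. In distinct cDNAs it was opposite, with 47.7% (43.4 to 52.1) and 29.1% (26.9 to 31.4). Over all protein-coding features without noncoding RNA overlap, the reads within the limit were 69.5% with Sni445-HTP against 45.3% in the control.

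**Figure D4:**
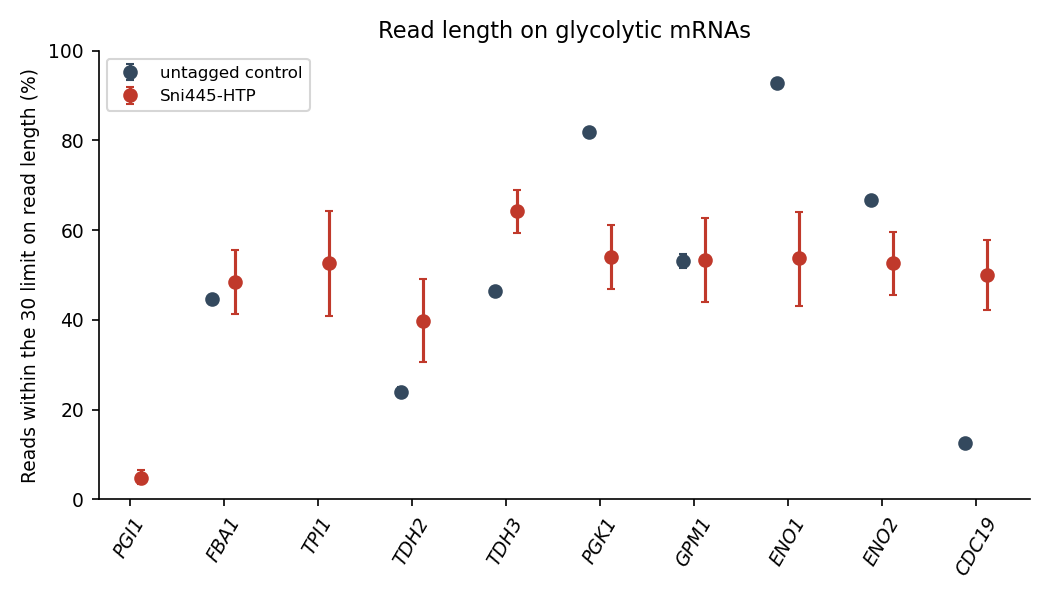
Percent of the reads on each glycolytic mRNA that lie within the 30 limit on read length (bars are exact 95% counting intervals), for libraries with at least 10 cDNAs on the mRNA, which leaves PGI1 and TPI1 without a control point. Control values spread from 12.6% to 92.9%, and Sni445-HTP values lie between 39.7% and 64.3% except PGI1 at 4.83%.

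Other abundant mRNA groups served as a reference, with features that overlap noncoding RNA genes or have antisense reads left out. The 134 ribosomal protein mRNAs, which encode the protein part of the ribosome, had 12770 and 218987 reads (ratio 0.0496, 0.0487 to 0.0505) and 1324 and 4102 cDNAs (ratio 0.805, 0.756 to 0.856). Of these, 53 had no control read. The 14 translation factor mRNAs had 900 and 34843 reads (ratio 0.0220, 0.0205 to 0.0235) and 309 and 809 cDNAs (ratio 0.952, 0.833 to 1.09), with 5 at 0 in the control. The glycolytic mRNAs, at 0.0238 in reads and 0.814 in cDNAs, lay close to both groups in cDNAs, where the intervals overlap. In reads they lay close to the translation factors and lower than the ribosomal protein mRNAs by more than the counting intervals. RPS7B alone held 6446 of the 12770 Sni445-HTP reads on ribosomal protein mRNAs, and a ratio without it was not computed. The gap in reads between the glycolytic and the ribosomal protein mRNAs may therefore rest on RPS7B. Without PGI1 the read ratio of the glycolytic mRNAs, 0.0152, was below that of both groups. Those groups kept their mRNAs with 0 control reads, such as YEF3 with 137 reads against 0, so the sets compared are unlike. Of the reads on protein-coding features without overlap, ribosomal protein mRNAs, RPS7B included, held 43.0% with Sni445-HTP against 18.9% in the control. Translation factor mRNAs held 3.03% and 3.0%.

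The remaining genes of glycolysis had at most 9 cDNAs with Sni445-HTP, fewer than any of the 10. Of 12 further genes and isozymes, 6 had at least 10 reads in the libraries together, of which 5 were at least 4-fold lower and 1, PFK1, at least 4-fold higher, against 54.7% and 20.9% of the 810 protein-coding features. In cDNAs HXK2 had a ratio of 1.66 (0.589 to 4.42), TDH1 one of 1.25 (0.493 to 2.92) and GLK1 one of 0.356 (0.147 to 0.751). PFK2 was lower by more than 4-fold in cDNAs as well, with a ratio of 0.0971 (0.0196 to 0.295). So was HXK1, with 0 cDNAs against 42 and a ratio of at most 0.178 at the floor of 3. PFK1 was at least 5.82-fold higher. The hexose kinases, which phosphorylate glucose, had 0 and 3507 reads (HXK1), 36 and 4417 (HXK2) and 20 and 4388 (GLK1), with Sni445-HTP given before the control. The subunits of phosphofructokinase went opposite ways. PFK1 had 30 reads on 7 cDNAs with Sni445-HTP against 0 in the control, whereas PFK2 had 9 reads on 3 cDNAs and 5039 reads on 77 cDNAs. GPM2, PYK2, ERR1, ERR2 and ERR3 had no sense read in either library, and GPM3 had 1 with Sni445-HTP.

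In the fermentation of pyruvate to ethanol, 4 of 8 genes had at least 10 reads and all 4 were at least 4-fold lower with Sni445-HTP, as were 54.7% of the 810 protein-coding features. PDC1, the main pyruvate decarboxylase, had 282 reads on 79 cDNAs and, in the control, 31245 on 164, with a cDNA ratio of 1.20 (0.906 to 1.58), a pattern like that of PGK1. ADH1, the main alcohol dehydrogenase of fermentation, had 70 and 468 reads, and its cDNA ratio was 1.31 (0.723 to 2.31). ADH2 had 10 and 1569, and the mitochondrial ADH3 had 20 and 5026, with cDNA ratios of 0.322 (0.0825 to 0.910) and 0.0774 (0.0248 to 0.184). Neither gluconeogenic gene, FBP1 or PCK1, had a read in either library.

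Reads of some of the 10 mRNAs were counted again on other features. The antisense counts of YCR013C were equal to the sense counts of PGK1 in all 8 values compared (reads and cDNAs under both limits in both libraries), and those of YKL153W were equal to those of GPM1. The antisense counts of an intergenic feature equalled the sense counts of PGI1, FBA1 and ENO1 in the same way. Sense counts of the 10 were not changed by this, and TPI1, TDH2, TDH3, ENO2 and CDC19 had no such twin.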

How the data were processed

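CRAC counts were used from 1 Sni445-HTP library and 1 untagged control library, as mapped by the sample labels. The authors separated the libraries by index with 1 mismatch allowed, checked quality with FastQC 0.12.1, aligned to EF2.59 with Novoalign 3.09.00, which put reads with several matches at a random one of them, and then ran pyReadCounters (Counters 1.4.4 per the file headers). The deposited values are raw read counts per feature in sense and antisense and numbers of distinct cDNAs, under read length limits of 1000 (used throughout) and 30. The way copies were collapsed is not given in the sources used here. cDNAs are given without direction. A feature that was not listed was taken as 0. The sequencer is a MiSeq in the labels and a NextSeq2000 in the methods.

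Shares with Clopper-Pearson intervals and ratios of shares with exact conditional binomial intervals, all at 95%, were computed in Python 3.11.15 with scipy 1.17.1 and tested on simulated data. A count of 0 was set to 3 for bounds, and no ratio was computed where a count of 0 met a count at or under 3. A feature was called past a fold of 4 with at least 10 reads (or cDNAs) in the libraries together. TMM factors came from edgeR 4.0.16 in R 4.3.3. R64 of RefSeq, which is not the authors' build, was used only for gene places, overlaps and sequences by gene name, and 2094 of 2224 protein-coding features matched it. Features without noncoding RNA overlap are the 2080 that matched and share no base with a noncoding RNA gene on the same strand. Features without a match were left out with the overlapping ones.

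Named genes are the 10 mRNAs, gene lists for the rest of glycolysis, fermentation, glycerol, gluconeogenesis, hexose transport, regulators and translation factors, and the 3 features nearest to the summed mRNAs in rank. YCR013C and YKL153W were added once their values were known. The mRNAs and lists were chosen with earlier results of these data known.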

Additional observations from a re-analysis of the deposited data

How the results depend on the processing

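The 42.0-fold lower summed share (ratio 0.0238) moved with the denominator and the unit. The ratio was 0.0120 under the 30 limit, 0.0162 over mapped reads, 0.0379 over counts without snR4, snR45 and rRNA, and 0.0206 with antisense added. It was 0.966 over protein-coding counts and with median-ratio scaling, 0.834 with TMM and 0.814 in cDNAs. Chosen after seeing the data, it was 0.841 in cDNAs over features without antisense reads and 0.0152 without PGI1. The number of mRNAs at least 4-fold lower, 8, was 0 over protein-coding counts, with median-ratio and TMM scaling and in cDNAs over either denominator, and 8 under the other settings tried.

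The ratio turned above 1 for TDH3 over protein-coding counts and with median-ratio scaling (1.15 each). These scalings move all genes alike, and TDH3 had the highest ratio of the 8. In cDNAs, over all features and over those without antisense reads, it turned above 1 for TDH3 (1.18, 1.22), PGK1 (1.22, 1.26), GPM1 (1.47, 1.52) and ENO2 (1.05, 1.09). No other single mRNA changed direction. Under the 30 limit the bound for PGI1 was 8.93-fold and that for TPI1 8.31-fold, and the lower shares became 166-fold for PGK1, 210-fold for ENO1, 203-fold for ENO2 and 37.5-fold for CDC19.

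The protein-coding share of the 10 differed by -0.111 percentage points (Sni445-HTP minus control). It was -2.71 under the 30 limit, -0.744 with antisense added and -1.26 without PGI1. It was opposite in cDNAs (0.293), without features of the rDNA (1.69) and, chosen after seeing the data, without noncoding RNA overlap (0.724 in reads, 1.20 in cDNAs). The share within the 30 limit differed by -16.5 points, and was opposite in cDNAs (18.6) and without the mRNA with the most reads in each library (5.53).

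No paired analysis was possible because each strain has 1 library. No replicate was left out for the same reason, and strain and library cannot be told apart. At these totals 3 reads are 1.11e-05% with Sni445-HTP against 1.31e-05% in the control.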

Other observations

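The hexose transport, glycerol and regulator genes had few reads, all with Sni445-HTP. Absence from the control was common, since of 1778 protein-coding features with Sni445-HTP reads 379 also had control reads. Of 7 hexose transporter genes, which encode the carriers that bring glucose into the cell, HXT1, HXT2, HXT3, HXT4, HXT6 and HXT7 had between 3 and 11 reads with Sni445-HTP, 50 in all on 12 cDNAs, and 0 in the control. None passed 4-fold against the floor of 3 control reads. Of the glycerol branch, GPD1 had 10 reads on 1 cDNA and GPP1 (listed as RHR2) had 25 reads on 4 cDNAs, both with 0 in the control. Against the floor of 3 control reads, GPP1 was 7.09-fold higher in reads. Among transcriptional regulators of glycolysis, RAP1 had 10 reads and TYE7 had 3, each on 1 cDNA and with 0 in the control, and GCR1 and GCR2 had none.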
